A study of Mus musculus with 7 samples.

Results

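RNA of growth factor ligands, grouped as candidate signals from endothelial cells to their neighbours, was compared between lung endothelial cells labelled wild-type and Sash1-knockout. The 10 ligand genes chosen by symbol were Hbegf, Tgfa, Areg and Nrg1 of the epidermal growth factor family, Pdgfa, Pdgfb and Pdgfd of the platelet-derived growth factor family, Hgf, Inhbb and Csf1. Of these 10, 9 had a probe set that names exactly 1 gene symbol, out of 22180 genes with such a probe set. Each of the 9 was measured by 1 probe set and lay above the filter that left out the dimmest 25% of genes, so that all 9 were tested among 16635 genes. Areg, which encodes the EGFR ligand amphiregulin, was not included in the expression comparison.

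Growth factors released by blood vessels are known as angiocrine signals. In the developing lung, ligands of the EGF family act on ErbB receptors of epithelial and mesenchymal cells, and HGF acts on the receptor MET of epithelial cells. PDGF-A and PDGF-B act on the PDGF receptors of myofibroblast precursors and pericytes. Activins act through paired type 1 and type 2 receptors that signal through SMAD proteins, and CSF1 maintains macrophages through CSF1R.

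RNA came from lungs of C57BL/6-background mouse embryos at E18.5, just before birth, with 3 samples from wild-type embryos and 4 from Sash1-/- littermates genotyped by PCR. Viable cells that carried the endothelial antigen CD31 and lacked the leukocyte antigen CD45 and the epithelial antigen CD326 were sorted, and the RNA of each sample was amplified and hybridised to 1 array with a single colour. All values are log2 signals after RMA, a method that corrects background, equalises the arrays and summarises probes, and each difference is the knockout-labelled mean minus the wild-type-labelled one. The labels do not state whether each sample was a separate embryo, whether embryos were pooled, or which part of Sash1 was removed, so p-values cover the spread of these samples only, and part of it may be technical.

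The arrays did not follow their labels cleanly. Sash1 itself measured 9.02, 8.73 and 8.33 in the samples labelled wild-type 1, 2 and 3 (below, wild-type 1 to 3) and 8.29, 8.21, 8.68 and 8.13 in those labelled knockout (knockout 1 to 4), so wild-type 3 lay among the knockout-labelled values and knockout 3 close to wild-type 2. The Sash1 difference was -0.37 (95% confidence interval -0.83 to 0.10; limma adjusted p = 0.971). A probe set outside the removed part may still give signal in a knockout, so these values cannot settle whether the labels are right. On the first principal component over the tested genes without Sash1 (36.5% of the variance), wild-type 1, wild-type 2 and knockout 3 lay at 18.1 to 29.6 and the other 4 arrays at -23.2 to -10.2. Results below are therefore named by label, and are given with and without single arrays where these matter. The endothelial markers held steady, with means over 10 genes of 10.06 to 10.10 on the wild-type-labelled and 9.97 to 10.23 on the knockout-labelled arrays, including Pecam1 (CD31) at 11.03 to 11.21 and Cdh5 at 11.83 to 11.97. Transcripts of sorted-out cells were present on all arrays, with mean log2 signals of 6.52 to 8.18 for 12 epithelial markers and 5.86 to 6.79 for 12 leukocyte markers, although Epcam (CD326) and Ptprc (CD45) themselves measured only 4.06 to 5.31 and 3.51 to 4.85. In such a mixture, fewer cells of a type and less RNA per cell cannot be told apart.

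None of the 9 ligands differed between labels beyond the spread of all 7 arrays, but the unadjusted result depended on the array labelled wild-type 3. In limma with all arrays, 0 of 9 passed a Benjamini-Hochberg adjusted p of 0.05, with adjusted p between 0.971 and 0.998, and 0 had an unadjusted p under 0.05. Over all genes, 0% of the 16635 tested passed the adjusted threshold and 3.34% had an unadjusted p under 0.05. Without wild-type 3, 5 of 9 ligands (Hgf, Hbegf, Pdgfd, Inhbb and Csf1) had an unadjusted p under 0.05, against 7.9% of all genes, and their adjusted p in limma was 0.469 to 0.588. The same 5 did so without both wild-type 3 and knockout 3 (10.7% of all genes; adjusted p 0.256 to 0.435), and 4 did so when limma weighted the arrays by their quality (Hbegf, Pdgfd, Inhbb and Csf1; 7.87% of all genes; adjusted p 0.633). Csf1 alone did so after quantile normalization (4.24% of all genes) or median centring (4.29%), and 0 did so in the 12 other settings. Wild-type 3 and knockout 3 were picked out by their values in these same data, so p-values without them cannot serve as a test. The fits without them left wild-type 1 and 2 alone under their label, where each of the 5 ligands was at its highest or lowest. The 5 are therefore not separate results. The values of both labels overlapped for all 9 ligands, while they did not overlap for 2.45% of all tested genes. Of the 9, 5 had positive differences (Hgf, Tgfa, Pdgfd, Csf1 and Pdgfa) and 4 negative ones (Inhbb, Hbegf, Pdgfb and Nrg1), with a median of 0.04, against 54.4% positive and a median of 0.015 over all tested genes. Differences reached from -0.79 for Inhbb to 0.58 for Hgf. An exact permutation test across all 35 assignments of 3 and 4 labels, whose smallest possible p is 0.0286, gave p = 0.0857 to 0.886 (two-sided).

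**Figure D1:**
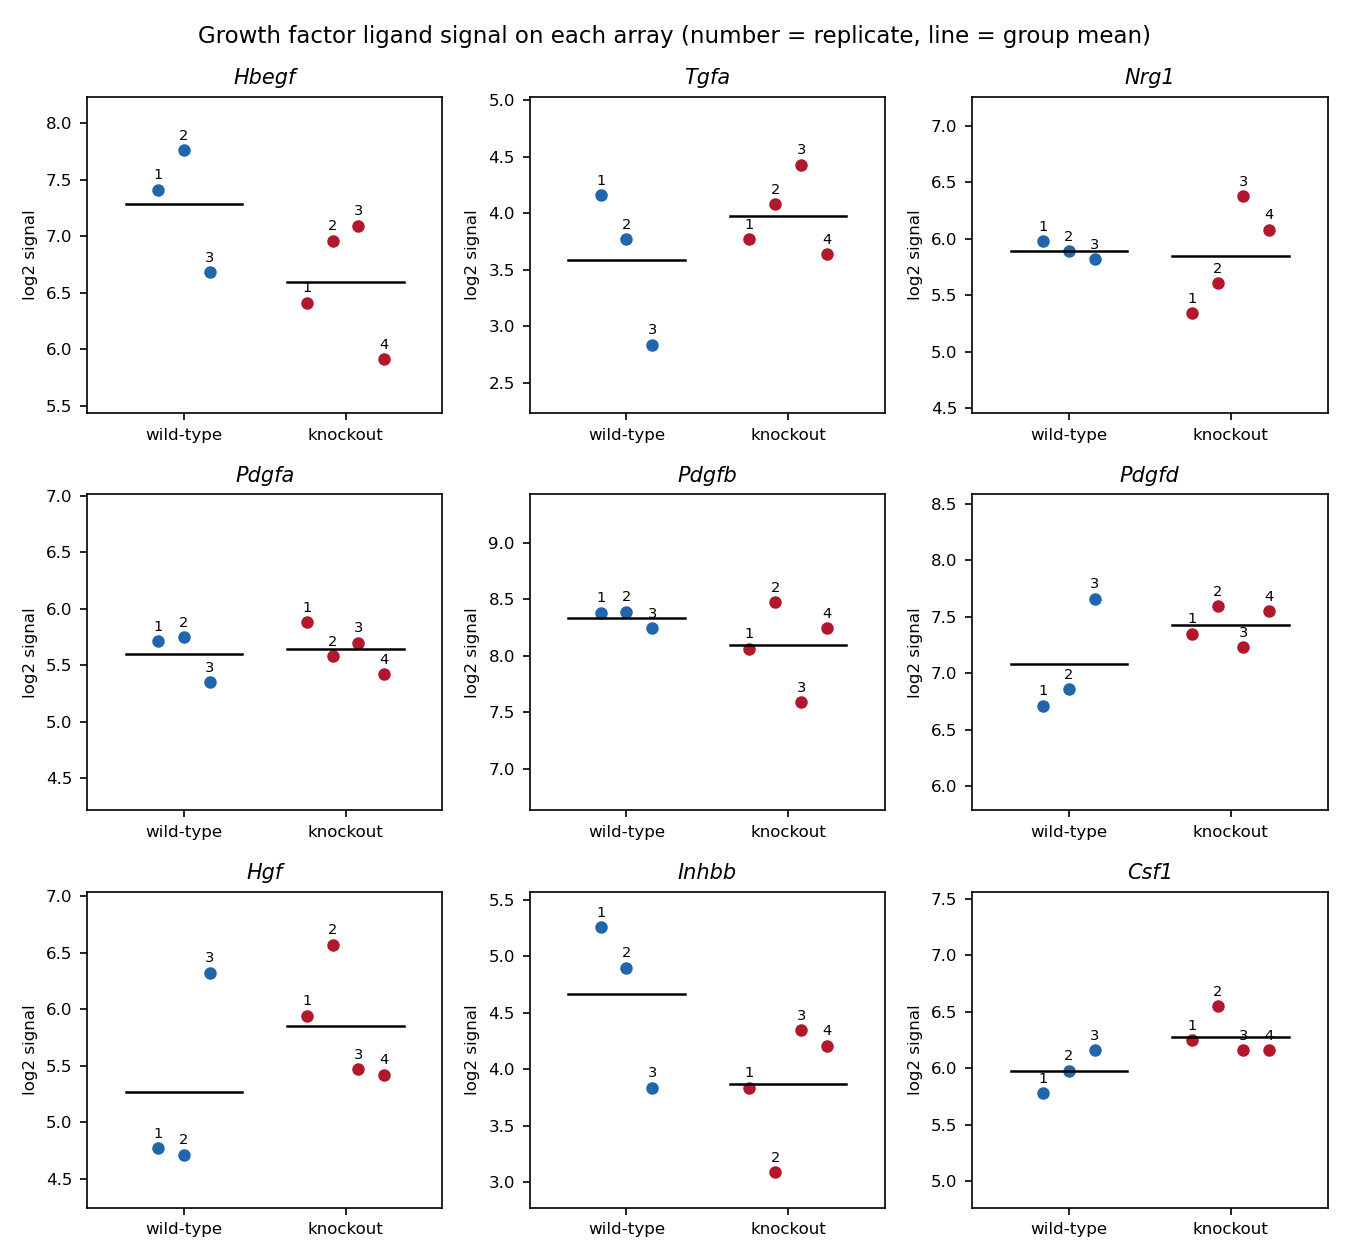
Log2 signal (vertical axis, 2.8 units in every panel) of 9 growth factor ligand genes on the 3 arrays labelled wild-type (blue) and the 4 labelled knockout (red), with the replicate number above each point and the group mean as a line. The groups overlap in every panel, and Hgf, Pdgfd, Hbegf, Tgfa and Inhbb show the array labelled wild-type 3 apart from wild-type 1 and 2.

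Hbegf encodes heparin-binding EGF-like growth factor, a membrane-anchored ligand of EGFR and ErbB4 that is shed by metalloproteases. Its signal was 7.41, 7.76 and 6.68 across wild-type 1 to 3, against 6.41, 6.96, 7.09 and 5.91 across knockout 1 to 4. Wild-type 1 and 2 had the highest values, while wild-type 3 lay below knockout 2 and 3. The means were 7.28 ± 0.55 (SD, n = 3) and 6.59 ± 0.54 (SD, n = 4), a difference of -0.69 (SE 0.35, 95% confidence interval -1.52 to 0.14), which puts the knockout-labelled level at 62.0% of the wild-type-labelled one, with a limma adjusted p of 0.971. Leaving out wild-type 2 gave -0.45, and leaving out wild-type 3 and knockout 3 together gave -1.16 (limma adjusted p = 0.356).

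Tgfa, which encodes the EGFR ligand transforming growth factor alpha, lay near the filter on dim genes, set at a log2 signal of 2.98. It measured 4.16, 3.77 and 2.84 across wild-type 1 to 3, against 3.77, 4.08, 4.43 and 3.64 across knockout 1 to 4. Wild-type 3 stood below all other arrays and under the filter value, and the other wild-type-labelled values lay inside the knockout-labelled range. The difference was 0.39 (SE 0.33, 95% confidence interval -0.39 to 1.17; limma adjusted p = 0.971). It rested on wild-type 3: without that array it was 0.02, without both wild-type 3 and knockout 3 it was -0.14, without knockout 3 it was 0.24, and without wild-type 1 it was 0.68. Epithelial markers, whose cells are a known source of this ligand, had list means of 8.18, 7.81 and 7.06 on the wild-type-labelled and 7.87, 7.28, 7.99 and 6.52 on the knockout-labelled arrays, with negative differences in 10 of 12 members and a median of -0.26, where the Tgfa difference was positive. The list mean was low on wild-type 3, as Tgfa was, but lowest on knockout 4, where Tgfa measured 3.64. The members were split. Krt8, Krt18, Cldn18 and Nkx2-1 were lowest on wild-type 3, as Tgfa was. Sftpa1, Sftpb, Sftpc, Sftpd, Epcam, Cdh1 and Scgb1a1 were lowest on knockout 4, and Hopx on knockout 2. The part of epithelial cells in the Tgfa values was not tested.

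Nrg1 encodes neuregulin 1, the ligand of ErbB3 and ErbB4, which in the heart passes from endothelium to muscle. It measured 5.98, 5.89 and 5.82 across wild-type 1 to 3, against 5.34, 5.61, 6.38 and 6.08 across knockout 1 to 4. The wild-type-labelled values were close together (SD 0.08, n = 3) and sat in the middle of a wider knockout-labelled range (SD 0.47, n = 4), with knockout 1 lowest and knockout 3 highest of all 7. The means differed by -0.04 (95% confidence interval -0.61 to 0.53; limma adjusted p = 0.998). Its sign turned without knockout 1 (0.13) or knockout 2 (0.04), was -0.22 without knockout 3, and turned under median centring of the arrays (0.01).

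The PDGF ligands differed in how steady they were. Pdgfb encodes the B chain by which endothelial cells recruit pericytes through PDGFRB, and it measured 8.38, 8.39 and 8.24 across wild-type 1 to 3, against 8.06, 8.47, 7.59 and 8.24 across knockout 1 to 4. Apart from knockout 3, all arrays lay between 8.06 and 8.47. The difference was -0.25 (SE 0.20, 95% confidence interval -0.72 to 0.22; limma adjusted p = 0.971), and it was -0.08 without knockout 3 and -0.37 without knockout 2. Pdgfa, which encodes the A chain that binds PDGFRA on myofibroblast precursors, was the steadiest ligand, at 5.71, 5.75 and 5.35 against 5.88, 5.58, 5.70 and 5.42. Its range over all 7 arrays was 0.53, and its difference of 0.04 (95% confidence interval -0.31 to 0.39; limma adjusted p = 0.994) turned sign without wild-type 3 (-0.09) or knockout 1 (-0.04).

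Pdgfd encodes a PDGFRB ligand that is secreted in a latent form and activated by proteolysis. It measured 6.71, 6.86 and 7.66 across wild-type 1 to 3, against 7.35, 7.59, 7.23 and 7.55 across knockout 1 to 4. Wild-type 1 and 2 were the lowest of the 7 arrays and wild-type 3 the highest. The difference was 0.35 (SE 0.23, 95% confidence interval -0.19 to 0.90; limma adjusted p = 0.971), which puts the knockout-labelled level at 128% of the wild-type-labelled one. Dropping wild-type 1 brought it to 0.17, dropping wild-type 3 took it to 0.65, and dropping both wild-type 3 and knockout 3 took it to 0.71 (limma adjusted p = 0.256, the lowest for any ligand under any setting tried).

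Hgf encodes hepatocyte growth factor, which is secreted as an inactive precursor and signals through MET. It measured 4.77, 4.71 and 6.32 across wild-type 1 to 3, against 5.94, 6.57, 5.47 and 5.42 across knockout 1 to 4. Wild-type 1 and 2 were again lowest, and wild-type 3 was exceeded only by knockout 2. The means were 5.27 ± 0.91 (SD, n = 3) and 5.85 ± 0.53 (SD, n = 4), a difference of 0.58 (SE 0.46, 95% confidence interval -0.49 to 1.66; limma adjusted p = 0.971). Dropping wild-type 1, wild-type 2 or knockout 2 brought it to 0.34, 0.31 or 0.34, dropping wild-type 3 took it to 1.11, and dropping wild-type 3 together with knockout 3 took it to 1.24 (limma adjusted p = 0.346). Fibroblast and mural markers, whose cells are a known source of Hgf, had list means of 6.52, 6.91 and 6.59 against 7.12, 6.66, 7.00 and 6.49, with positive differences in 10 of 12 members and Col1a1 at 6.33 to 6.95. Tcf21, a transcription factor of lung fibroblasts named here after its values were seen, was the only one of the 12 whose groups did not overlap, at 8.38, 8.32 and 8.0 against 8.55, 8.47, 8.81 and 8.99 (difference 0.47, limma unadjusted p = 0.0207, adjusted p = 0.971). Over all tested genes, the groups did not overlap for 2.45%, and 3.34% had an unadjusted p under 0.05 in limma. On knockout 2, highest for Hgf, the mean of the fibroblast and mural list lay inside the wild-type-labelled range and Tcf21 above every wild-type-labelled value. Other arrays went the other way. Tcf21 was lowest on wild-type 3, where Hgf measured 6.32, and highest on knockout 4, where Hgf measured 5.42. The part of these markers in the Hgf values was not tested.

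Inhbb encodes the beta B subunit shared by activin B and inhibin B. It measured 5.26, 4.90 and 3.84 across wild-type 1 to 3, against 3.84, 3.09, 4.35 and 4.21 across knockout 1 to 4. Wild-type 1 and 2 were highest, wild-type 3 equalled knockout 1, and knockout 2 was lowest, close to the filter value of 2.98. The means were 4.67 ± 0.74 (SD, n = 3) and 3.87 ± 0.56 (SD, n = 4), a difference of -0.79 (SE 0.41, 95% confidence interval -1.77 to 0.18), which puts the knockout-labelled level at 57.7% of the wild-type-labelled one (limma adjusted p = 0.971). Dropping wild-type 1 brought it to -0.50, dropping wild-type 3 took it to -1.21, and dropping both wild-type 3 and knockout 3 took it to -1.37 (limma adjusted p = 0.322).

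Csf1, which encodes the macrophage growth factor, had the smallest unadjusted p of the 9 ligands (0.0606 in limma, exact permutation p = 0.0857). It measured 5.78, 5.98 and 6.16 across wild-type 1 to 3, against 6.25, 6.55, 6.16 and 6.16 across knockout 1 to 4. Wild-type 3 equalled knockout 3 and 4, and every other wild-type-labelled value lay below every knockout-labelled one. The difference was 0.31 (SE 0.14, 95% confidence interval -0.02 to 0.63; limma adjusted p = 0.971), which puts the knockout-labelled level at 124% of the wild-type-labelled one, and leaving out single arrays kept it between 0.21 and 0.40. Markers of leukocytes, some of which carry its receptor, had negative differences in 11 of 12 members. Their list means were 6.79, 6.55 and 6.22 across wild-type 1 to 3, against 6.48, 6.18, 6.49 and 5.86 across knockout 1 to 4. Lyz2, Fcer1g, Tyrobp, Cd68 and Ptprc were lowest on knockout 4, and the other members on other arrays. Csf1r itself stayed at 4.03 to 4.32 on all 7 arrays, and the part of leukocytes in the Csf1 values was not tested.

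**Figure D2:**
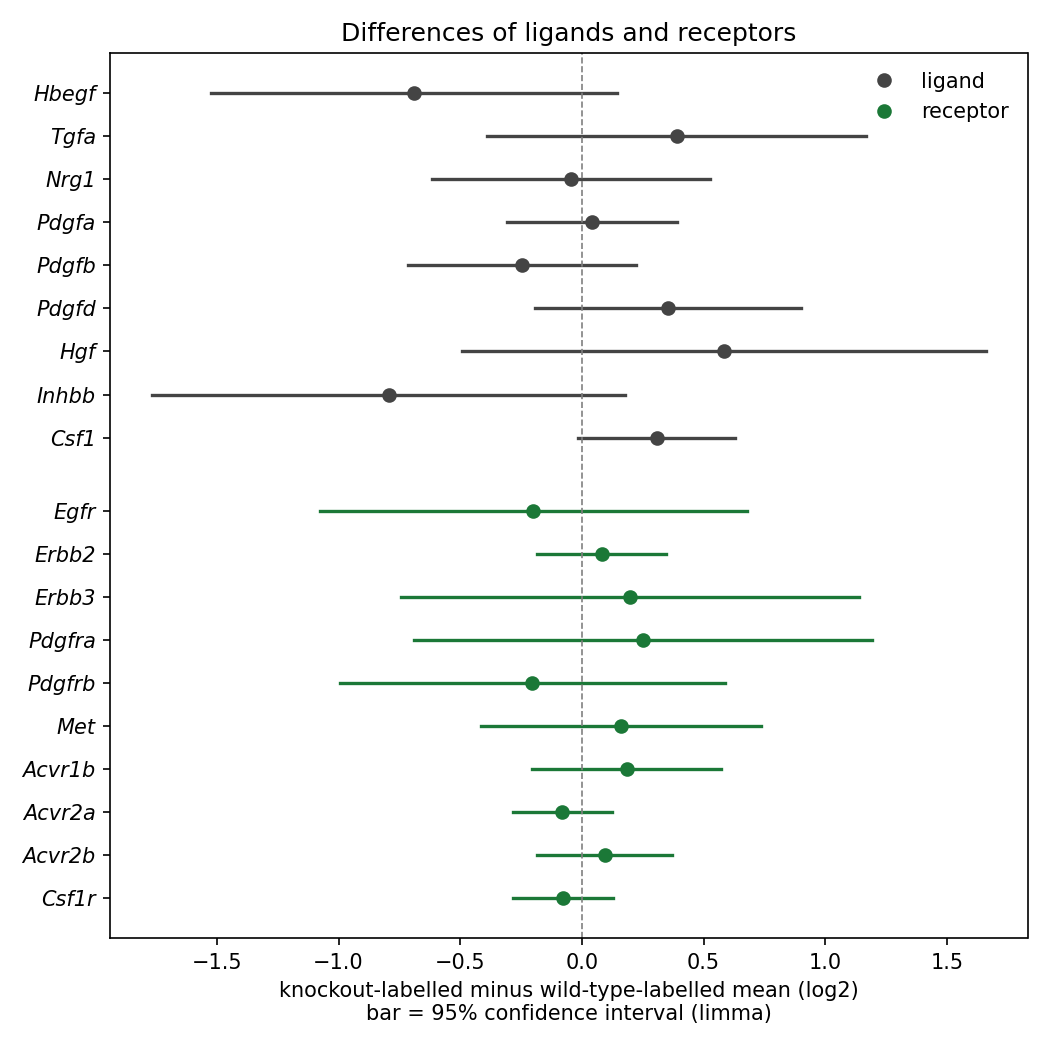
Difference of knockout-labelled and wild-type-labelled means (horizontal axis, log2) with the 95% confidence interval from limma (bar) for 9 ligands (grey) and the 10 tested receptors (green), from 3 and 4 arrays. All 19 intervals include 0, and the widest among the ligands are those of Hgf and Inhbb.

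Across the 7 arrays, 4 ligands varied more than 95% of tested genes did. The SD over all arrays was 0.72 for Hgf and Inhbb, 0.62 for Hbegf and 0.51 for Tgfa, at the percentiles 98.6, 98.6, 97.6 and 95.1 of the tested genes. Pdgfa, with an SD of 0.19, lay at percentile 44.1. Hgf, Pdgfd and Csf1 were lowest on wild-type 1 and 2, where Inhbb and Hbegf were highest. After each gene was centred on its mean, Pdgfd and Csf1 were the most alike of the 36 pairs of ligands, with a root mean square difference of 0.21 log2 units, and Hgf and Pdgfd differed by 0.40. This measure is not scaled, so genes that vary little tend to come out closer.

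**Figure D3:**
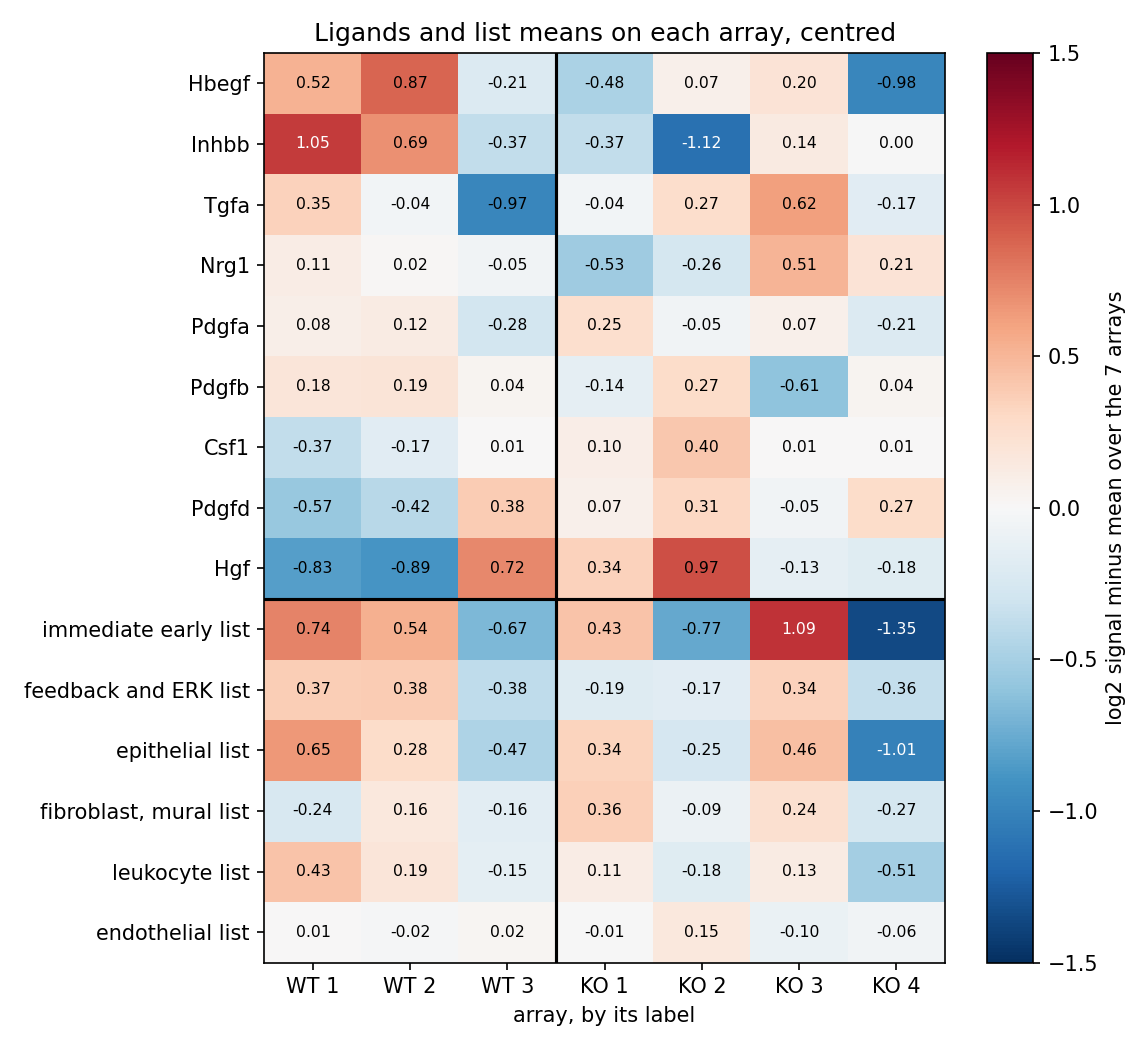
Log2 signal of each ligand (upper rows) and mean of 6 gene lists (lower rows) on each array, minus the row's mean over the 7 arrays; red is above and blue below that mean. Wild-type 1 and 2 are red for Hbegf and Inhbb and blue for Csf1, Pdgfd and Hgf, and wild-type 3 has the opposite colour to wild-type 1 for Hbegf, Inhbb, Pdgfd and Hgf.

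The immediate early and dissociation stress genes varied most among the marker lists. They had negative differences in 13 of 15 members, with a median of -0.29 and 0 that passed. Their mean over the 15 genes was 8.85, 8.64 and 7.43 across wild-type 1 to 3, against 8.53, 7.33, 9.19 and 6.76 across knockout 1 to 4. Fos ranged from 4.39 to 9.10, Egr1 from 6.06 to 9.40 and Atf3 from 5.77 to 9.32. Hbegf was lowest on knockout 4, as was this list, but knockout 3, highest for the list, lay below wild-type 1 and 2 for Hbegf, and Inhbb was lowest on knockout 2. The part of these genes in the ligand values was not tested. Platelet markers, with Pf4 at 4.64 to 6.44 among them, had negative differences in 5 of 5 tested members and list means of 4.89 to 5.76 and 4.47 to 5.70, and mesothelial markers in 3 of 6, with list means of 5.07 to 6.07 and 5.27 to 5.77.

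Genes with the most similar course over the 7 arrays were sought for the 5 ligands whose signal ranged over more than 1 log2 unit. Hbegf was followed most closely by Nr4a2, an orphan nuclear receptor (root mean square difference 0.14), then Trp53inp1 (0.15) and the cholesterol transporter gene Npc1 (0.17). Nr4a2 measured 6.74, 6.87 and 6.18 across wild-type 1 to 3, against 5.79, 6.08, 6.29 and 5.31 across knockout 1 to 4. Hgf was closest to 2610507I01Rik (0.16), Zfp638 (0.23) and Tasor (0.23), and 2610507I01Rik measured 6.78, 6.34 and 8.29 against 7.78, 8.14, 7.41 and 7.20. Inhbb was closest to the transporter gene Slc16a11 (0.20), Mir150 (0.26) and Calcb (0.28), Tgfa to Fam162b (0.15), 2010320M18Rik (0.16) and the translation factor gene Eif4a1 (0.16), and Nrg1 to Wnt5b (0.07), the tubulin gene Tuba1a (0.07) and Acot7 (0.10). These are descriptions over 7 arrays, chosen from 16635 genes, and the root mean square difference tends to be smaller for a ligand that varies less.

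Because Hgf and Pdgfd were low on the same arrays and Inhbb high there, the 250 bases before the start of each gene were read from RefSeq (build GRCm38.p6) and are shown 5′ to 3′ on the strand of the gene. The windows are chr5:16553245-16553494 (plus strand, the more upstream of the 2 starts listed for Hgf), chr9:6168236-6168485 (plus strand, Pdgfd) and chr1:119422249-119422498 (minus strand, Inhbb).
Hgf: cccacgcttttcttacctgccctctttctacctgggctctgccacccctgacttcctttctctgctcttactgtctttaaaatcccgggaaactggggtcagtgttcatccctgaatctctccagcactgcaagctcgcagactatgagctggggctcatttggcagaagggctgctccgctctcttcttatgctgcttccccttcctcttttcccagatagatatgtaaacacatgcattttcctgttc
Pdgfd: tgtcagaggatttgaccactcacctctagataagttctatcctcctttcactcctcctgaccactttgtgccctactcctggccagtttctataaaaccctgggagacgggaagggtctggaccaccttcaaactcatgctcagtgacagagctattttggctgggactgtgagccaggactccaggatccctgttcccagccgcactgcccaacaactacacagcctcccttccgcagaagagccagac
Inhbb: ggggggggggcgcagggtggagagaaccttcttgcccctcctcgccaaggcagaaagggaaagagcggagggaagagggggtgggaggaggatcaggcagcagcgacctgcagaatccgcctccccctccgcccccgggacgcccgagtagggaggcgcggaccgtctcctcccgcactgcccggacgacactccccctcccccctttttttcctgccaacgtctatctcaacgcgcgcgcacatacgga
Their GC content was 50.8%, 53.6% and 68.0%, against a median of 52.4% over 32851 such windows. Neither the cAMP response element TGACGTCA nor the AP-1 site TGANTCA, searched on both strands, occurred in these 3 windows, which is why no base is in capitals, and they occurred in 1.55% and 6.75% of all windows. Across the 9 windows listed for 7 of the ligand genes, the only match was a cAMP response element 61 bases before the start of Areg. These letters say nothing of whether a factor binds elsewhere.

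Receptors of these ligands were measured in the same cells, and 10 of 11 lay above the filter. Of the 10, 0 passed the test and 0 had an unadjusted p under 0.05 in limma. Differences were positive in 6 and negative in 4, with a median of 0.09 that was -0.01 without wild-type 3 or knockout 2. Among the ErbB receptors, Egfr differed by -0.20 (95% confidence interval -1.08 to 0.68), the shared partner Erbb2 by 0.08 (-0.18 to 0.35) and Erbb3 by 0.20 (-0.74 to 1.14), while Erbb4 was dim, at 2.01 to 2.77. Egfr was highest on wild-type 1 (6.03) and lowest on wild-type 3 (4.41), and Erbb3 likewise (5.51 and 3.88). The mean of the epithelial list was also highest on wild-type 1, but lowest on knockout 4. Of its members, Krt8, Krt18, Cldn18 and Nkx2-1 were lowest on wild-type 3, and most others on knockout 4. Pdgfra, the receptor of mesenchymal precursors, differed by 0.25 (-0.69 to 1.19) and measured 7.46 on knockout 1 against 5.66 to 6.54 on all other arrays; the fibroblast and mural list was also highest there (7.12), and its part was not tested. Pdgfrb, the pericyte receptor, differed by -0.20 (-0.99 to 0.59), and Met by 0.16 (-0.41 to 0.74). Among the activin receptors, Acvr1b, which ranged over 0.78 across the arrays, differed by 0.18 (-0.21 to 0.57), Acvr2a by -0.08 (-0.28 to 0.12) and Acvr2b by 0.09 (-0.18 to 0.37). Csf1r differed by -0.08 (-0.28 to 0.13).

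Of 16 other listed ligands of the same families, 10 lay above the filter, with 5 positive and 5 negative differences, a median of -0.01 (0.04 with quantile normalization or median centring) and 0 that passed. Inhba, which encodes the beta A subunit of activin A, was the only one with an unadjusted p under 0.05 in limma (0.0386, adjusted p = 0.971). Over all tested genes, 3.34% had an unadjusted p under 0.05. Inhba measured 3.10, 2.64 and 3.25 across wild-type 1 to 3, against 3.54, 3.24, 3.34 and 3.83 across knockout 1 to 4, a difference of 0.49 (95% confidence interval 0.03 to 0.95) at a level close to the filter. Ereg, which encodes the EGFR ligand epiregulin, differed by -0.22, Nrg2 by 0.12 and the second CSF1R ligand gene Il34 by -0.20.

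Genes that release, activate or bind these ligands gave 7 positive and 11 negative differences among 18, with a median of -0.04 (0.01 with median centring, and -0.16 to 0.04 with single arrays left out) and 0 that passed. Rhbdf2, which encodes the iRhom2 partner of the shedding protease ADAM17, had the smallest unadjusted p (0.0586 in limma, adjusted p = 0.971). It measured 8.04, 8.0 and 7.41 across wild-type 1 to 3, against 7.47, 7.43, 7.58 and 7.17 across knockout 1 to 4, a difference of -0.40 (95% confidence interval -0.83 to 0.02) with wild-type 3 inside the knockout-labelled range. The protease gene Furin differed by -0.31, the activin-binding protein gene Fstl3 by -0.21 and the co-receptor gene Tgfbr3 by -0.14. Genes that respond to or dampen growth factor receptors gave 5 positive and 12 negative differences among 17, with a median of -0.24 and 0 that passed. The list mean was 7.35, 7.36 and 6.59 across wild-type 1 to 3, against 6.78, 6.81, 7.32 and 6.62 across knockout 1 to 4, so wild-type 3 was lowest and knockout 3 lay close to wild-type 1 and 2. The immediate early and dissociation stress list was also high on wild-type 1, wild-type 2 and knockout 3 (8.85, 8.64 and 9.19), though on knockout 1 as well (8.53), and its part in this list was not tested. Within it the ERK inhibitor genes Spry4 and Spred2 differed by 0.34 (-0.10 to 0.78) and -0.24 (-0.56 to 0.09), Myc by -0.58 (-1.44 to 0.29) and the ETS factor gene Etv4 by 0.13 (-0.09 to 0.35). The median of this list was nearest 0 without wild-type 1 (-0.09), and it was -0.46 without wild-type 3 and -0.67 without wild-type 3 and knockout 3.

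**Figure D4:**
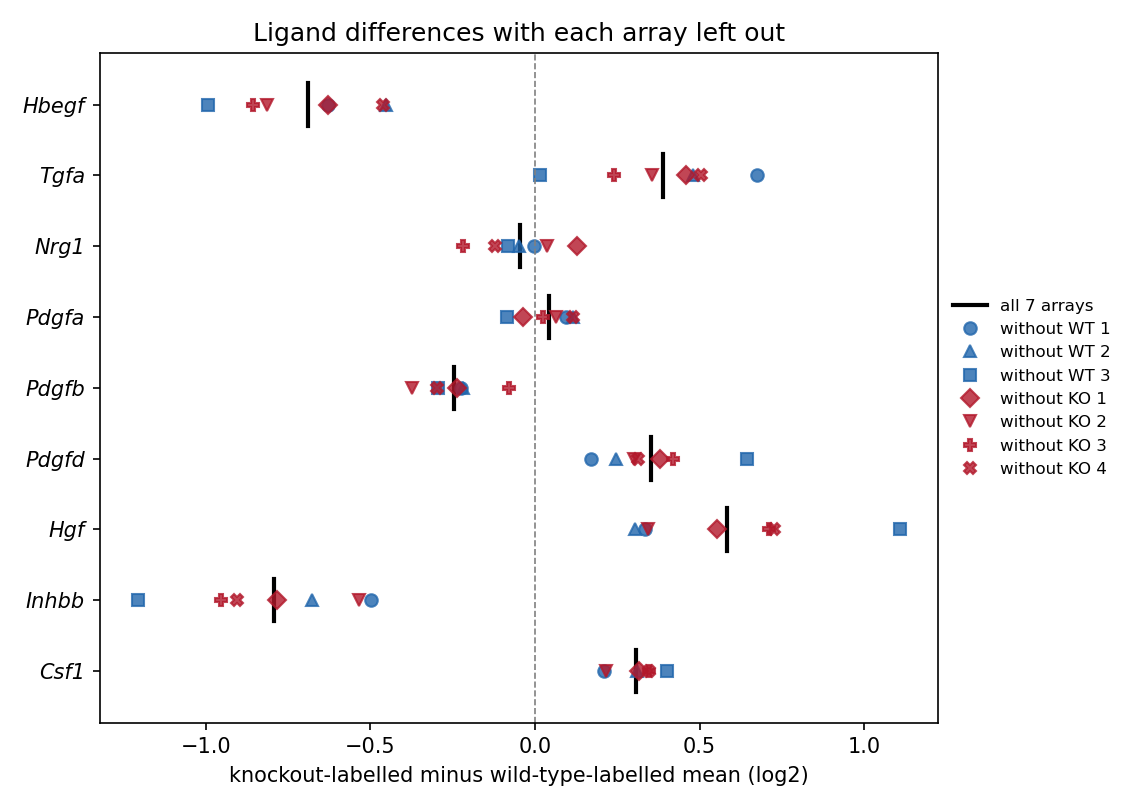
Difference of knockout-labelled and wild-type-labelled means (horizontal axis, log2) of each ligand with all 7 arrays (black line) and with 1 array left out (blue, wild-type-labelled; red, knockout-labelled). Leaving out wild-type 3 moved Hgf to 1.11, Hbegf to -0.99, Inhbb to -1.21 and Tgfa to 0.02.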

How the data were processed

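The authors deposited 1 log2 value per probe set and array, made with RMA in Affymetrix Expression Console 1.1 per the submitters' processing notes; the values themselves show the log2 scale, and the genome build is not given in the sources used here. RMA equalises arrays, which can hide a shift shared by most genes. Of 41345 probe sets, 23521 had exactly 1 symbol in the platform annotation (99.2% of their gene identifiers were found in RefSeq, GRCm38.p6), 1814 had several and 16010 none. The brightest probe set stood for a gene. The 25% of genes with the lowest mean were left out. limma 3.58.1 in R 4.3.3 compared 4 knockout-labelled with 3 wild-type-labelled arrays, with genotype as the only term, two-sided, adjusted over 16635 genes, and was tested on simulated data. The number of arrays limits the precision: the median 95% confidence interval over all tested genes reached 0.345 log2 units to either side. The interval was wider for most of the ligands, as for Hgf (-0.49 to 1.66), though not for Csf1 (-0.02 to 0.63). The members, gene lists and tests were chosen with earlier results of these data known. Genes named were the ligands, the receptors, the 4 genes of smallest unadjusted p in each other list, a few markers, and the 3 genes closest in course to each ligand that ranged over more than 1 log2 unit. Alternatives concerned the filter, normalization, moderation, weights, probe sets, replicate block and arrays left out.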

Additional observations from a re-analysis of the deposited data

Results flagged for a closer look

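Among 54 genes and list means checked on the 4 knockout-labelled arrays, 10 had a sample far from the other 3. None of the 9 ligands was among them. Chance flags about 1 in 20 independent groups. These groups share the same 4 arrays, and some list means contain genes also checked singly, so no excess can be read from the 10. On the array labelled knockout 4, the mean of the receptors was 5.60 (5.90 to 5.93 on the other 3), Il34 was 4.06 (4.53 to 4.56), Tgfbr3 was 7.87 (7.98 to 8.0), Epcam was 4.06 (5.14 to 5.19) and Ptprc was 3.51 (4.57 to 4.72). On knockout 2, Ereg was low at 3.70 (4.15 to 4.18) and Erbb2 high at 7.34 (6.97 to 7.02). On knockout 3, the mean of the genes that release, activate or bind the ligands was high at 6.67 (6.35 to 6.38), as was the mean of mesothelial markers at 5.77 (5.27 to 5.35). On knockout 1, Csf1r was 4.03 (4.14 on each of the other 3).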

How the results depend on the processing

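No alternative brought a ligand past the threshold: over the refitted settings the adjusted p in limma stayed between 0.256 and 1, and 0 genes of all tested passed, at 0.1 too. Signs turned in 8 of 160 values. Many of the 160 could not turn, because the filter, the moderation and the permutation test leave each difference as it is. Averaging over probe sets changed no ligand either, since each had only 1. The share is therefore no measure of how steady the signs are. Pdgfa differed by -0.0075 with array weights and -0.10 without wild-type 3 and knockout 3, where Tgfa differed by -0.14, and Nrg1 by 0.013 with median centring. Leaving out single arrays gave -0.085 to 0.12 for Pdgfa and -0.22 to 0.13 for Nrg1. The median of the receptor feedback and ERK target list moved from -0.24 to -0.67 without wild-type 3 and knockout 3. The cause was not tested. Genes with an unadjusted p under 0.05 numbered 556, but 295 without wild-type 2, 1314 without wild-type 3, 1780 without wild-type 3 and knockout 3, and 1310 with array weights; among the 9 ligands they numbered 0, but 5, 5 and 4 in the last 3 of these settings. Samples sharing a replicate number had negative correlations of deviations (-0.18, -0.20 and -0.55 for numbers 1, 2 and 3). With only 3 such pairs, these values cannot exclude pairing by litter or batch, which the labels do not state. Wild-type 3 and knockout 3 also lay on opposite sides of the first principal component (-23.2 and 21.0). A fit with the number as a replicate block, which leaves knockout 4 without weight, called 0 genes. In that fit the unadjusted p of limma lay under 0.05 for 225 genes. Hgf differed by 0.73, Hbegf by -0.46 and Inhbb by -0.91. Tgfa and Inhbb gave no value with 50% of genes left out.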
